A study of Homo sapiens with 18 samples.

Results

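Stat3 siRNA was compared with scramble siRNA in DU145, an androgen-insensitive human prostate cancer cell line derived from a brain metastasis. The comparison rests on 6 of the study's 18 Affymetrix U133 Plus 2.0 arrays: the 3 labelled as DU145 with Stat3 siRNA and the 3 labelled as DU145 control. All cells received Lipofectamine and an siRNA and were harvested after 48 h, so transfection itself was common to every group. Further groups of 3 arrays each were DU145 with siRNAs against Stat5a and Stat5b, and the prostate cancer line CWR22Rv1 with scramble, Stat3 or Stat5a/b siRNA. RNA of the triplicates was not pooled, per the labels, but nothing states that the cultures were separate. The p-values therefore rest on the spread among 3 arrays a group, and that spread may be technical. No siRNA sequence is given in the sources used here, and effects of lower STAT3 and of the siRNA on other transcripts cannot be told apart.

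STAT3 is a latent transcription factor. Cytokines of the IL-6 family bind receptors that share gp130, JAK kinases phosphorylate the receptor and STAT3 on tyrosine, and STAT3 dimers enter the nucleus and bind palindromic TTC-GAA elements. SOCS proteins, tyrosine phosphatases and PIAS proteins limit the signal. In prostate carcinoma the pathway is known for its links to survival, proliferation and invasion, and DU145 is widely used as a line with active STAT3.

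STAT3, the siRNA target, was strongly lower in the arrays labelled with its siRNA. Its log2 values (RMA) were 10.91, 10.96 and 10.82 in control and 9.45, 9.19 and 9.20 with Stat3 siRNA, and the groups did not overlap. The change was -1.62 ± 0.093 (log2, here and below ± the standard error from limma's fit of the 9 DU145 arrays, 3 per group), or 32.6% of control (adjusted p = 3.78e-05). Other STAT3 probe sets gave 27.0%, 30.2% and 78.1% of control, the last one dim and not called. With Stat5a/b siRNA STAT3 measured 0.16 against control, which did not pass the test (adjusted p = 0.307). In CWR22Rv1 the same siRNA left STAT3 at 45.7% of control, and its effect was larger in DU145 by -0.49 (adjusted p = 0.0495).

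Of 19775 genes tested, 1549 (7.83%) were called at an adjusted p under 0.05, 738 higher (3.73%) and 811 lower (4.10%) with Stat3 siRNA. All of these calls had arrays that did not overlap, against 26.2% of all genes. Most changes were small. At least 2-fold changes among the called genes numbered 44 higher and 46 lower, and the median change was 0.50 for called rises and -0.50 for called falls. Over all genes it was 0.0056, with quartiles of -0.11 and 0.12. Called genes were mid-level to abundant, with median control values of 7.95 for rises and 8.52 for falls against 6.35 for all genes. Leaving out any 1 array makes a group smaller and weakens the test, and each time fewer genes were called. Whichever of the 6 arrays was left out, 303 rises and 355 falls were called, and these are called stable below. The fit that leaves out control replicate 1, 2 or 3 gave 886, 791 and 1093 genes, and leaving out Stat3 siRNA replicate 1, 2 or 3 gave 1303, 988 and 869. Array medians lay between 5.156 and 5.198 in DU145, and the 3' minus 5' signal of the GAPDH control probe sets between 0.041 and 0.153.

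**Figure D1:**
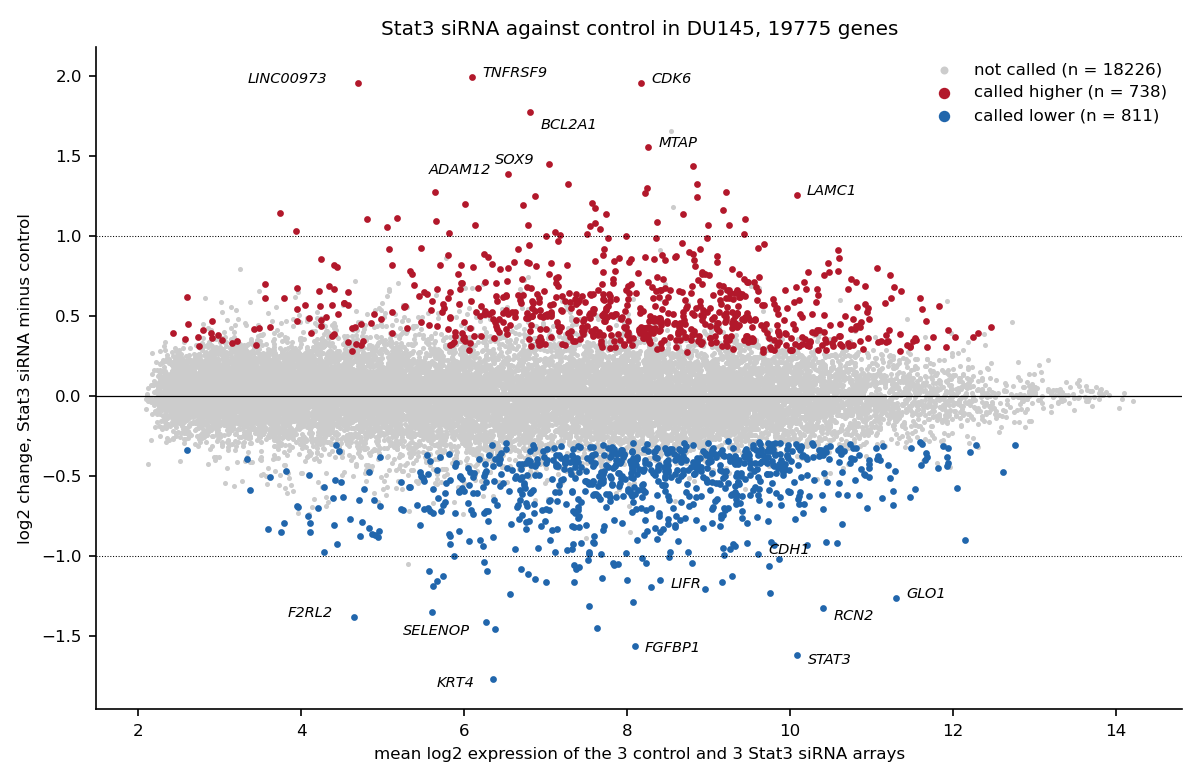
Log2 change with Stat3 siRNA (vertical axis) against the mean log2 expression of the 6 arrays (horizontal axis), 1 point per gene. The 738 genes called higher are red, the 811 called lower blue and the rest grey, and dotted lines mark 2-fold. STAT3 lies at -1.62, and TNFRSF9 and KRT4 are the outermost called genes.

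Promoter sequence was set beside these changes to see what the letters around the start sites hold. RefSeq promoters (GRCh38.p14, 250 bases before to 50 after the start) matched 15384 of the 19775 genes. The STAT element TTCNNNGAA, which reads the same on both strands, occurred in 6.75% of promoters of called rises and 6.25% of called falls, against 6.95% of tested genes and 7.88% of all 27305 promoters. Its stricter form TTCCNGGAA, contained in the first, occurred in 1.01% and 0.893%, against 1.23% of tested genes and 1.22% of all. Among changes of at least 2-fold the first form occurred in 3 of 32 promoters of rises (9.38%) and 5 of 38 of falls (13.2%), and the stricter form in 1 of each (3.12% and 2.63%). No test was made of these shares. To show the letters themselves, here are 100 bases before the start of STAT3, which holds no TTCNNNGAA in its window, and the stretches around TTCCNGGAA (capitals) in the called genes named by rule that hold it: POLE3, CD14, BST2 and IFNLR1. They run 5' to 3' on the gene's strand, here the minus strand throughout.
STAT3, chr17:42388443-42388542: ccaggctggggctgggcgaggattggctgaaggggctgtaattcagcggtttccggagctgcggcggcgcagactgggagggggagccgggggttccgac
POLE3, chr9:113410861-113410969: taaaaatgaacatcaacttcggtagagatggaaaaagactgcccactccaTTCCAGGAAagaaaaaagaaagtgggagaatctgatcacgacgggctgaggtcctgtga
CD14, chr5:140633240-140633348: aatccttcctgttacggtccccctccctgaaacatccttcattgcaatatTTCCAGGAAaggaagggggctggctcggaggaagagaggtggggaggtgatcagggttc
BST2, chr19:17405631-17405738: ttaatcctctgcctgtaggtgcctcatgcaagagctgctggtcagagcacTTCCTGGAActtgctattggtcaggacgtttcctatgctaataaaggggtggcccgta
IFNLR1, chr1:24187469-24187539: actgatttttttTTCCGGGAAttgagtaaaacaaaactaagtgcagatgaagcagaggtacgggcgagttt

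The element began 170, 123, 58 and 238 bases before the start in POLE3, CD14, BST2 and IFNLR1. POLE3, a histone-fold subunit of DNA polymerase epsilon, fell from 9.82, 9.99 and 10.02 in control to 9.34, 9.23 and 9.31 (-0.65 ± 0.081, adjusted p = 0.00112). CD14, a co-receptor for lipopolysaccharide, fell by 1.09 (adjusted p = 0.00163), from 6.14, 6.34 and 5.87 to 5.18, 4.81 and 5.08. BST2, the interferon-induced tetherin, fell by 0.71 (adjusted p = 0.0236) and IFNLR1, a subunit of the interferon lambda receptor, rose by 0.38 (adjusted p = 0.0345). The first pair of calls was stable. BST2 was not called without either of control replicates 1 and 2 or of Stat3 siRNA replicates 1 and 2 (adjusted p = 0.0752 to 0.0951), and IFNLR1 was called only without Stat3 siRNA replicate 3 (adjusted p = 0.0193, otherwise 0.0680 to 0.106).

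Among receptors of the IL-6 family, LIFR fell and IL6R rose, whereas the shared chain did not pass the test. LIFR, the leukaemia inhibitory factor receptor, stood at 8.78, 9.08 and 9.09 in control and at 7.76, 7.96 and 7.80 with Stat3 siRNA (-1.15 ± 0.106, 45.2% of control, adjusted p = 2.23e-04). A second of its 5 probe sets fell by 1.26, and the other three measured -0.25 to -0.01. IL6R, the ligand-binding IL-6 receptor chain, stood at 8.35, 8.49 and 8.45 in control and at 9.29, 9.24 and 9.20 with Stat3 siRNA (0.82 ± 0.087, adjusted p = 5.04e-04). Both groups of arrays were apart for each gene. IL6ST, which encodes gp130, measured 0.06 ± 0.081 (adjusted p = 0.766) at values between 11.44 and 11.65 in all 6 arrays. Of 11 receptor genes measured, 1 rose and 1 fell (18.2% called, against 7.83% of all genes). None of 8 ligand genes and none of 4 other STAT genes was called. STAT5B measured -0.10 ± 0.106, STAT5A 0.02 ± 0.077 and STAT6 0.23 ± 0.079. STAT4 measured -0.85 ± 0.284 (adjusted p = 0.108; 0.00196 with the replicate number as a block).

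Most kinases that activate STAT3 and most brakes on the pathway did not pass the test. Of 10 kinase genes 2 rose and 1 fell (30% called, against 7.83% of all genes), and the stable one was YES1, a Src-family tyrosine kinase, which rose by 0.48 ± 0.083 (adjusted p = 0.00651; 0.0641 with the mean of its probe sets). JAK2 measured 0.09, TYK2 -0.16 and SRC -0.07, none called. Of 19 brakes none rose and 2 fell (10.5% called), neither of them stably: PTPN6, the phosphatase SHP-1, by 0.50 (adjusted p = 0.0165; up to 0.0613, without Stat3 siRNA replicate 2 or either of control replicates 1 and 2) and SOCS5 by 0.51 (adjusted p = 0.0210; called only without control replicate 1). SOCS3, the classical feedback inhibitor induced by STAT3, measured -0.08 ± 0.143 (adjusted p = 0.819). Its arrays overlapped, with 5.97, 6.13 and 5.93 in control and 6.22, 5.64 and 5.93 with Stat3 siRNA. Its 4 probe sets disagreed: 1 that was brighter in the control arrays fell, from 7.004, 6.998 and 6.880 to 5.72, 6.03 and 5.57 (-1.19, adjusted p = 6.06e-04 over all probe sets), and the others measured -0.21 and 0.07. The list counts use 1 probe set per gene, the brightest on average across the 18 arrays, and so hold SOCS3 as not called.

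Few genes of a textbook list of STAT3 targets changed. Of 34 measured, 4 fell and 1 rose (14.7% called, against 7.83% of all genes), and the list's median was -0.05. Without control replicate 1 or 2 or any Stat3 siRNA replicate none rose, and 3 fell, or 2 without Stat3 siRNA replicate 3. MUC1, a membrane mucin, stood at 10.97, 10.96 and 10.77 in control and 10.06, 10.12 and 9.79 with Stat3 siRNA (-0.91 ± 0.161, 53.2% of control, adjusted p = 0.00722). VEGFA, the angiogenic growth factor, fell from 11.62, 11.83 and 11.93 to 10.97, 11.16 and 11.36 (-0.63 ± 0.120, adjusted p = 0.0106), and its other 3 probe sets were called lower too, by 0.77 to 1.02. These calls were stable. PIM1, a survival kinase, fell by 0.41 (adjusted p = 0.0164) and CEBPD, an acute-phase transcription factor, by 0.52 (adjusted p = 0.0289). PIM1 was not called without control replicate 3 or Stat3 siRNA replicate 2 or 3 (adjusted p up to 0.0576), nor CEBPD without either of control replicates 1 and 2 or of Stat3 siRNA replicates 1 and 3 (up to 0.107). CCND1, cyclin D1, rose by 0.32 (adjusted p = 0.0394) and was called only without control replicate 3. Other well-known members were not called: MYC measured 0.21, BCL2L1 -0.08, MCL1 0.21, BIRC5 0.03, HIF1A 0.06 and MMP9 0.11. The promoters of 22 of the 34 were in the table, and 3 held TTCNNNGAA (13.6%): BCL6, ICAM1 and IRF1, at -0.11, -0.13 and 0.08, none called. A second IRF1 probe set measured 0.47 and was called (adjusted p = 0.0148 over all probe sets).

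**Figure D2:**
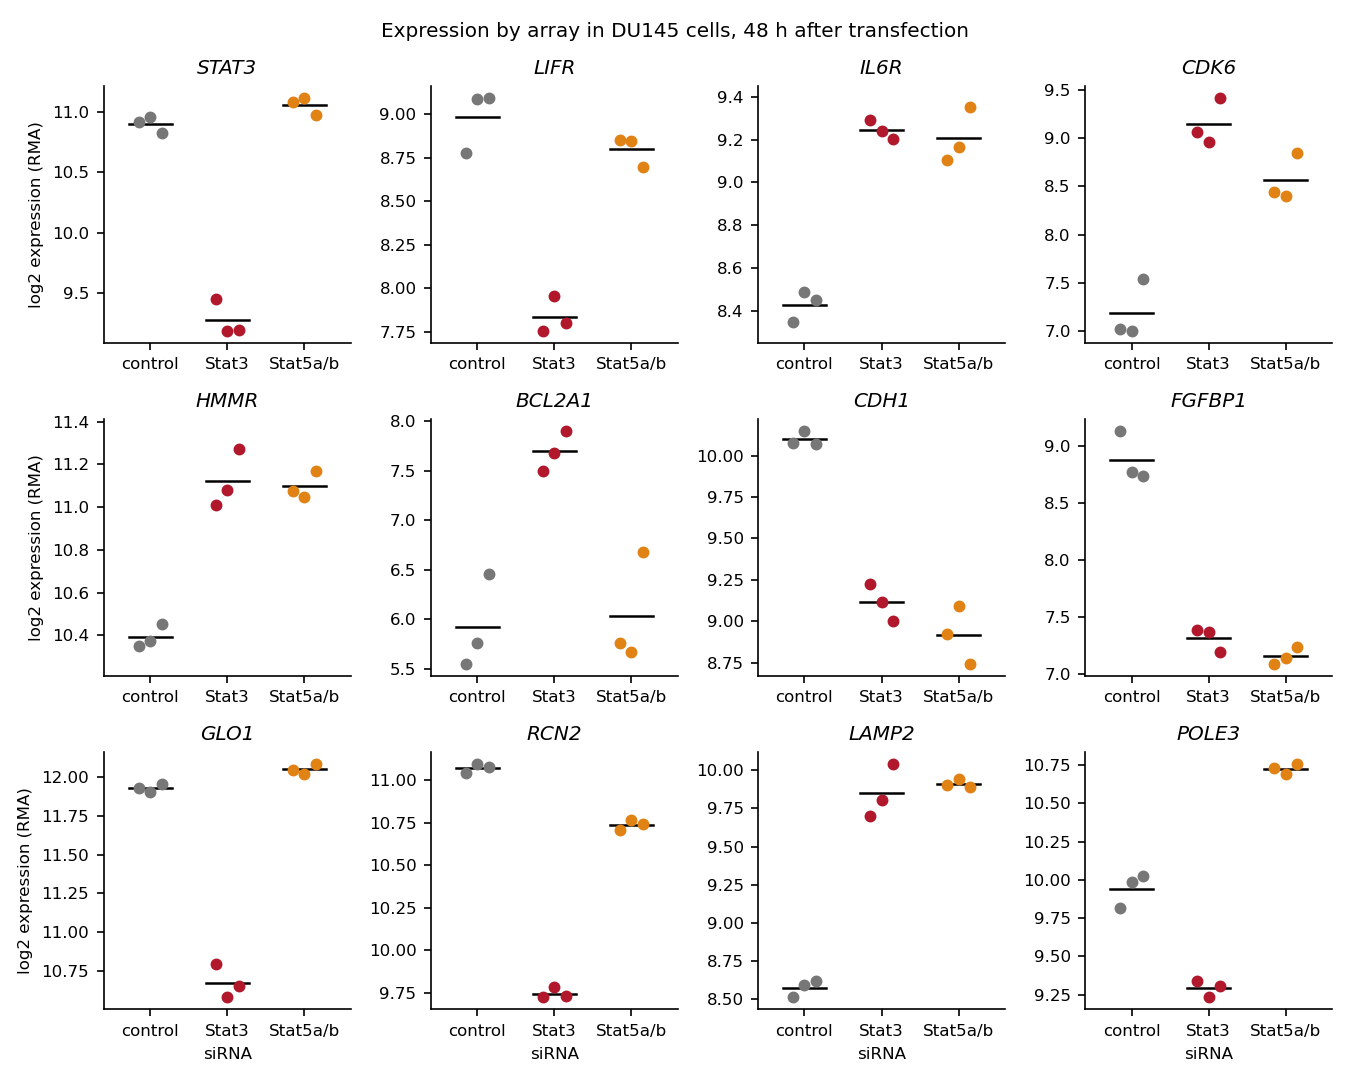
Log2 expression (RMA, vertical axis) in the 9 DU145 arrays for 12 genes, by siRNA; points are arrays and the black line is the mean of 3. In each panel the Stat3 siRNA arrays (red) are apart from the control arrays (grey), and for STAT3, LIFR, GLO1 and BCL2A1 the Stat5a/b siRNA arrays (orange) lie near control instead. Panels have their own vertical scales, which do not start at 0.

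Interferon receptors and interferon-stimulated genes did not move together. Of 10 genes of receptors and IRF9, 3 rose and 1 fell (40% called, against 7.83% of all genes). IFNGR1, a chain of the interferon gamma receptor, was called whichever array was left out and fell by 0.55 ± 0.086 (adjusted p = 0.00393), from 9.30, 9.44 and 9.36 to 8.81, 8.95 and 8.70. A second of its probe sets measured -0.60 and was called, but the most variable one measured -0.07 (adjusted p = 0.878). IFNAR1 rose by 0.47 (adjusted p = 0.0124; 0.0507 to 0.0561 without Stat3 siRNA replicate 3 or either of control replicates 1 and 2) and IFNAR2 by 0.32 (adjusted p = 0.0330; above 0.05 whichever array was left out). Of 42 interferon-stimulated genes none rose and 4 fell (9.52%, against 4.10% of all genes), namely USP18, BST2, GBP1 and DTX3L, with a median of -0.22. None of these 4 was stable, GBP1 was not called with the replicate block (adjusted p = 0.0542), and leaving out single arrays gave 1, 0 and 2 falls for control replicates 1, 2 and 3 and 1, 3 and 1 for the Stat3 siRNA replicates. With the replicate block 8 fell. The arrays of the groups overlapped for the list's mean level, at 6.87 to 7.12 in control and 6.55 to 6.97 with Stat3 siRNA. Against Stat5a/b siRNA, 29 of the 42 differed, where 12.0% of all genes did. Compared with control, 27 of the 42 were called higher and 2 lower with Stat5a/b siRNA. USP18, an interferon-induced deISGylase, measured -0.46 with Stat3 siRNA and 0.85 with Stat5a/b siRNA (adjusted p of the difference = 3.90e-05).

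Several genes of the NF-kB list rose and most did not pass the test. Of 24 measured 6 rose (25%, against 3.73% of all genes) and none fell, with a median of 0.25, and 4 were stable. BCL2A1, an anti-apoptotic BCL2 relative, stood at 5.55, 5.76 and 6.46 in control and 7.50, 7.68 and 7.90 with Stat3 siRNA (1.77 ± 0.282, adjusted p = 0.00423). NFKBIA, which encodes the inhibitor IkB-alpha, rose from 11.13, 11.10 and 10.87 to 11.74, 11.73 and 11.59 (0.66 ± 0.115, adjusted p = 0.00703), and LTB, lymphotoxin beta, by 0.53 (adjusted p = 0.00292). The second probe set measured -0.03 for NFKBIA and -0.05 for LTB. CCL20, a chemokine, rose by 0.43 at the dim level of 3.24 to 3.77 (adjusted p = 0.00942). CXCL8, interleukin 8, singled out after its values were seen, had the second largest change of the list but just missed the threshold: 7.25, 7.43 and 8.46 in control against 9.10, 9.17 and 9.83 (1.65 ± 0.449, adjusted p = 0.0510). With the replicate block CXCL8 was called (adjusted p = 0.00230), as was TNFAIP3, the deubiquitinase A20, at 1.18 (0.0699 without and 7.60e-04 with the block). Control replicate 3 was the highest of the control arrays for BCL2A1, CXCL8 and TNFAIP3.

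In the TNF and IL-1 receptor families 3 of 21 rose and 1 fell (19% called, against 7.83% of all genes). TNFRSF9, the co-stimulatory receptor 4-1BB, had the largest rise of all genes: 4.86, 5.23 and 5.23 in control and 6.75, 7.30 and 7.24 with Stat3 siRNA (1.99 ± 0.163, adjusted p = 1.25e-04). Its other probe sets measured 0.64 and 0.34. TNFRSF10B, the TRAIL receptor DR5, rose by 0.75 ± 0.089 (adjusted p = 8.06e-04), from 10.06, 10.02 and 10.05 to 10.84, 10.74 and 10.82. IL1R1, the IL-1 receptor, fell by 0.48 ± 0.090 (adjusted p = 0.00968) on its chosen probe set, but the other measured -0.02 and the mean of both was not called (adjusted p = 0.145).

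Several cell-cycle genes rose with Stat3 siRNA, by small amounts, and most did not pass the test. Of 42 DNA replication and G1/S genes 11 rose and none fell (26.2%, against 3.73% of all genes), with a median of 0.17. The stable rises were CDC6, GINS1, GINS2, GINS3, FEN1 and UHRF1. CDC6, which loads the MCM helicase at origins, stood at 8.06, 8.05 and 8.14 in control and 8.79, 8.72 and 8.74 with Stat3 siRNA (0.66 ± 0.075, adjusted p = 6.10e-04). GINS2, a subunit of the replicative helicase, rose from 9.14, 9.08 and 9.18 to 9.79, 9.73 and 9.77 (0.63 ± 0.072, adjusted p = 7.01e-04). FEN1, the flap endonuclease, rose by 0.43 and UHRF1, a reader of hemimethylated DNA, by 0.50 (adjusted p = 0.00539 and 0.0106). Leaving out control replicate 1, 2 or 3 gave 9, 7 and 8 rises and leaving out Stat3 siRNA replicate 1, 2 or 3 gave 10, 7 and 6. With Stat5a/b siRNA, against the same control arrays, 13 of the 42 were called higher and 1 lower. The direct test between the siRNAs called 6 of them, where it called 12.0% of all genes. With Stat3 siRNA in CWR22Rv1 13 were called higher and none lower, where 6.05% of all genes were called higher.

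Of 35 mitotic genes 9 rose and 1 fell (28.6% called, against 7.83% of all genes, with 3.73% of all genes higher and 4.10% lower), with a median of 0.20. Fewer rises were called with any 1 array left out. These were 1, 1 and 2 without control replicate 1, 2 or 3 and 5, 4 and 2 without Stat3 siRNA replicate 1, 2 or 3. HMMR, a spindle-associated hyaluronan receptor, was the stable rise, from 10.35, 10.37 and 10.45 to 11.01, 11.08 and 11.27 (0.73 ± 0.088, adjusted p = 9.62e-04). CDC25B, a phosphatase that activates CDK1, was the fall, from 9.98, 9.95 and 9.82 to 9.48, 9.31 and 9.22 (-0.58 ± 0.096, adjusted p = 0.00500). CDK1 and CCNB1, the mitotic kinase and its cyclin, rose by 0.32 and 0.31 (adjusted p = 0.0220 and 0.0240), but with 1 array left out they were called only without Stat3 siRNA replicate 1 (otherwise adjusted p = 0.0546 to 0.0839). With Stat5a/b siRNA, against the same control arrays, 8 of the 35 mitotic genes were called higher and 2 lower. The direct test between the siRNAs called 4 of them, where it called 12.0% of all genes. With Stat3 siRNA in CWR22Rv1 27 were called higher and none lower, where 6.05% of all genes were called higher. None of 20 homologous recombination and Fanconi genes was called, at a median of 0.15. Of 10 histone genes 4 rose (40%, against 3.73% of all genes), none of them stably. Without control replicate 1, 2 or 3, 1, 2 and 0 rose, and without Stat3 siRNA replicate 1, 2 or 3, 3, 0 and 0. In bulk RNA a larger share of cells in a cycle phase and more RNA per cell cannot be told apart.

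Promoters of these genes hold the elements known from cell-cycle control. Either E2F element, TTTCCCGC or TTTGGCGC on either strand, occurred in 17 of 37 replication promoters (45.9%) against 2.31% of all promoters, and in 6 of the 9 promoters of the called rises in the table. The CHR element TTTGAA occurred in 18 of 29 mitotic promoters (62.1%) against 15.4%, and in 7 of the 8 called rises. No test was made of these shares. GINS2 and HMMR are shown as examples of called members with an element before the start and were chosen after their values were seen. The bases before their starts are shown with the elements in capitals, on the minus strand for GINS2, where the E2F element reads in reverse complement, and the plus strand for HMMR.
GINS2, chr16:85688955-85689035: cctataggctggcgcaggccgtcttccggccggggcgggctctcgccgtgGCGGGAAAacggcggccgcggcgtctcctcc
HMMR, chr5:163460554-163460631: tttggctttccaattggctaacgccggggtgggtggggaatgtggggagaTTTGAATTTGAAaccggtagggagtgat

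CDK6, a G1 kinase that phosphorylates RB, had the largest change of the genes that set G1 progression. It stood at 7.02, 7.005 and 7.54 in control and 9.06, 8.96 and 9.42 with Stat3 siRNA (1.96 ± 0.179, adjusted p = 2.17e-04). Of its 7 probe sets a further 3 were called higher, at 1.70, 2.01 and 0.75, and the other three measured 0.29, -0.01 and -0.01. The most variable of the 7 is among the latter. CDK4, its partner kinase, measured 0.10 and the cyclins CCND2 and CCND3 0.00 and -0.11, none called. RB1 rose by 0.52 (adjusted p = 0.0360) and CDK2 by 0.35 (adjusted p = 0.0432), but RB1 was not called without either of control replicates 1 and 2 or of Stat3 siRNA replicates 2 and 3 (up to 0.114) and CDK2 whichever array was left out (up to 0.145). CDK2 was not called with the replicate block either (adjusted p = 0.0606), nor RB1 and CDK2 with the mean of their probe sets (0.171 and 0.254). Of 7 CDK inhibitors 2 rose and 1 fell (42.9% called, against 7.83% of all genes), none of them stably. CDKN1A, p21, measured 0.49 (adjusted p = 0.0321; 0.0561 to 0.108 with 1 array left out), and CDKN1B, p27, -0.04 (adjusted p = 0.898).

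Apoptosis regulators changed individually. Of 15 BCL2-family genes 2 rose and 1 fell (20% called, against 7.83% of all genes). Beside BCL2A1, the stable call was BCL2L11, which encodes the pro-apoptotic BH3-only protein BIM: 8.43, 8.40 and 8.20 in control and 7.53, 7.49 and 7.62 with Stat3 siRNA (-0.79 ± 0.087, 57.7% of control, adjusted p = 5.38e-04). Its other 6 probe sets, all dimmer, measured -0.53 to 0.03, none called. BCL2 measured -0.07, BAX -0.18 and BAK1 0.08, none called. CASP2, an initiator caspase, rose by 0.52 ± 0.074 (adjusted p = 0.00206). Among 22 p53 targets 3 rose and 2 fell (22.7% called, against 7.83% of all genes). These counts were 2 and 1 without Stat3 siRNA replicate 3 or either of control replicates 1 and 3. The stable ones moved in both directions too. CCNG1, cyclin G1, rose from 10.91, 10.89 and 10.76 to 11.58, 11.65 and 11.60 (0.75 ± 0.076, adjusted p = 3.83e-04). TP53I3, a quinone oxidoreductase, fell from 9.12, 9.04 and 8.90 to 8.25, 8.16 and 7.75 (-0.97 ± 0.124, adjusted p = 0.00123).

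CDH1 and CDH3 fell stably, and most other epithelial adhesion genes did not pass the test. Of 33 junction and luminal genes none rose and 9 fell (27.3%, against 4.10% of all genes), with a median of -0.15. CDH1, E-cadherin of adherens junctions, stood at 10.07, 10.15 and 10.07 in control and 9.22, 9.12 and 9.0 with Stat3 siRNA (-0.98 ± 0.102, 50.6% of control, adjusted p = 4.39e-04), and its second probe set fell by 1.05. CDH3, P-cadherin, fell from 10.34, 10.25 and 10.21 to 9.57, 9.37 and 9.08 (-0.93 ± 0.128, adjusted p = 0.00190). CDH1, CDH3 and MUC1 were the stable falls, and the others lay between -0.33 and -0.49. Leaving out control replicate 1, 2 or 3 gave 5, 3 and 4 falls and leaving out Stat3 siRNA replicate 1, 2 or 3 gave 5, 4 and 4. With Stat5a/b siRNA, against the same control arrays, 13 of the 33 were called lower and none higher. The direct test between the siRNAs called 6 of them, where it called 12.0% of all genes. With Stat3 siRNA in CWR22Rv1 3 were called lower and 5 higher, against 4.36% and 6.05% of all genes. CTNNB1, beta-catenin, which links cadherins to the cytoskeleton, moved the other way, by 0.57 ± 0.094 (adjusted p = 0.00493). The simple-epithelial keratins KRT8 and KRT18 measured -0.21 and -0.16, not called, at 10.48 to 13.05 in all 6 arrays.

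Mesenchymal and matrix genes moved in both directions. Of 24 EMT genes 5 rose and 1 fell (25% called, against 7.83% of all genes). SOX9, a transcription factor of progenitor and mesenchymal states, stood at 6.05, 6.19 and 6.73 in control and 7.64, 7.69 and 7.98 with Stat3 siRNA (1.45 ± 0.244, adjusted p = 0.00562), and its second probe set was called too, at 1.62. LOX, lysyl oxidase, which cross-links collagen, rose by 1.19 ± 0.203 (adjusted p = 0.00596) and NT5E, the ectonucleotidase CD73, by 0.51 (adjusted p = 0.00796). CALD1, caldesmon, fell by 0.82 ± 0.109 (adjusted p = 0.00162). VIM, vimentin, measured 0.22 (adjusted p = 0.166) at 12.99 to 13.35 in all 6 arrays. Of 33 collagen and matrix genes 2 rose and 5 fell (21.2% called). COL1A1, a type I collagen chain, fell from 7.32, 7.25 and 6.96 to 6.04, 6.02 and 5.77 (-1.24 ± 0.117, adjusted p = 2.54e-04). COL4A1, of basement membranes, fell by 0.99 and THBS1, thrombospondin 1, by 1.07 (adjusted p = 0.00495 and 0.00701). LAMC1, the laminin gamma 1 chain, rose from 9.52, 9.51 and 9.34 to 10.73, 10.75 and 10.65 (1.26 ± 0.083, adjusted p = 5.22e-05), although its second probe set measured 0.16.

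Among proteases of the cell surface, ADAM12, a membrane metalloprotease, stood at 5.80, 5.75 and 5.99 in control and 7.28, 7.26 and 7.16 with Stat3 siRNA (1.39 ± 0.094, adjusted p = 5.22e-05). Its other 4 probe sets, all dimmer, measured 1.51, 1.06, -0.07 and -0.19, of which the first was called. ADAM19, its relative, rose by 1.08 ± 0.114 (adjusted p = 4.63e-04; its second probe set measured -0.01). HPSE, heparanase, which cleaves heparan sulphate, fell by 1.04 ± 0.113 (adjusted p = 5.20e-04), as did F2RL2, the protease-activated receptor 3, by 1.38 (adjusted p = 0.00553). The other F2RL2 probe set measured -0.04. Of 28 metalloprotease, heparanase and TIMP genes 4 rose and 2 fell (21.4% called, against 7.83% of all genes), or 2 and 1 without control replicate 1. MMP1 measured 1.14 at the dim level of 3.03 to 4.50 (adjusted p = 0.0366) and was called only without Stat3 siRNA replicate 2 (otherwise 0.0789 to 0.119).

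Part of the FGF signalling genes fell, and most did not pass the test. Of 18 measured none rose and 7 fell (38.9%, against 4.10% of all genes), with a median of -0.21. FGFBP1, which releases FGFs from the matrix, stood at 9.13, 8.76 and 8.73 in control and 7.39, 7.37 and 7.19 with Stat3 siRNA (-1.56 ± 0.114, 33.9% of control, adjusted p = 8.73e-05). The heparan sulphate proteoglycans SDC4 and SDC1, which present FGFs to their receptors, fell by 0.92 ± 0.092 and 0.73 ± 0.096 (adjusted p = 3.55e-04 and 0.00144). These 3 were the stable falls, and leaving out control replicate 1, 2 or 3 gave 3, 4 and 4 and leaving out Stat3 siRNA replicate 1, 2 or 3 gave 6, 4 and 3. With Stat5a/b siRNA, against the same control arrays, 6 of the 18 were called lower and 1 higher. The direct test between the siRNAs called 2 of them, where it called 12.0% of all genes. Of 21 ERK feedback genes 5 rose (23.8%, against 3.73% of all genes) and none fell, with a median of 0.22. SPRED2, an inhibitor of RAF activation, was the stable one, from 8.43, 8.38 and 8.55 to 9.21, 9.02 and 9.19 (0.69 ± 0.088, adjusted p = 0.00125). Without single arrays 1, 1 and 5 rises (control replicates 1, 2 and 3) and 3, 2 and 1 (Stat3 siRNA replicates) were called, and 8 with the replicate block.

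**Figure D3:**
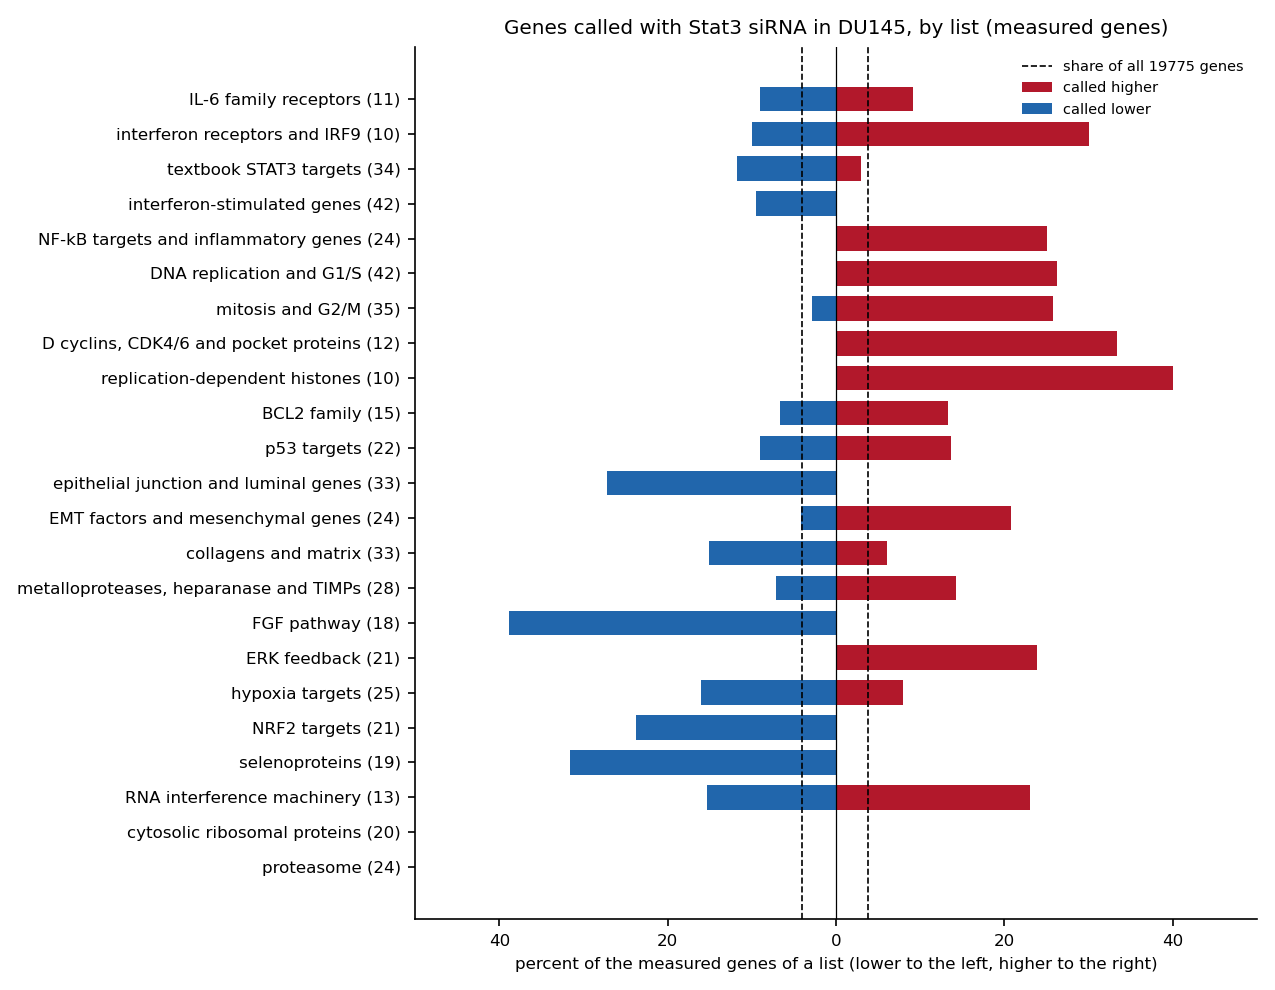
Share of the measured genes of each list that were called lower (blue, to the left) or higher (red, to the right) with Stat3 siRNA; list sizes stand in parentheses and dashed lines mark the shares of all genes, 4.10% lower and 3.73% higher. FGF, epithelial, selenoprotein and NRF2 lists extend to the left, and cell-cycle, NF-kB and ERK feedback lists to the right.

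SELENOP and GLO1 fell stably, and other falls among redox and selenium genes were not stable. SELENOP, the plasma selenium carrier, stood at 7.04, 7.37 and 6.90 in control and 5.57, 6.16 and 5.22 with Stat3 siRNA (-1.45 ± 0.263, adjusted p = 0.00808), while its dimmer probe sets measured -0.20 and -0.29. It was the stable one of 6 falls among 19 selenoprotein genes (31.6%, against 4.10% of all genes), of which none rose and whose median was -0.19; single arrays left out gave 2, 2 and 2 (control replicates 1, 2 and 3) and 3, 2 and 4 (Stat3 siRNA replicates). Of 21 NRF2 targets none rose and 5 fell (23.8%, against 4.10% of all genes), none stably (SLC7A11, ABCC3, GCLC, ME1 and NQO1, -0.31 to -0.60), and 1, 0 and 4 (control replicates) and 4, 3 and 0 (Stat3 siRNA replicates) were called with 1 array left out. The direct test between the siRNAs called 12 of these 21, where it called 12.0% of all genes, and with Stat5a/b siRNA 8 of them were called higher than control and 1 lower. GLO1, glyoxalase 1, which detoxifies methylglyoxal, is on neither list and fell from 11.93, 11.91 and 11.96 to 10.79, 10.58 and 10.65 (-1.26 ± 0.079, 41.7% of control, adjusted p = 5.22e-05).

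Metal-handling genes depended on the pairing of arrays. Of 12 metallothionein and zinc transport genes 1 rose and 1 fell (16.7% called, against 7.83% of all genes). Yet 8 rose and 1 fell with the replicate number as a block, at a median of 0.43. MTF1, the zinc-sensing activator of metallothionein genes, was the stable rise, from 6.35, 6.35 and 6.33 to 7.10, 7.16 and 6.96 (0.73 ± 0.109, adjusted p = 0.00280). MT2A measured 0.47 (adjusted p = 0.181; 0.0191 with the block). MT1M fell by 1.35 (adjusted p = 0.0485), and was called with 1 array left out only without Stat3 siRNA replicate 3. Metallothionein genes are near-identical copies, and their probe sets may share transcripts. SLC11A2, the iron transporter DMT1, fell from 8.88, 8.90 and 8.91 to 7.67, 7.72 and 7.72 (-1.20 ± 0.087, adjusted p = 8.73e-05). Of 25 hypoxia targets 2 rose and 4 fell (24% called), or 1 and 2 without Stat3 siRNA replicate 2. Of 20 ribosomal protein genes and 24 proteasome genes none was called.

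Genes of RNA silencing and of chromatin changed in both directions. Of 13 RNA interference genes 3 rose and 2 fell (38.5% called, against 7.83% of all genes). These counts were 2 and 1 without either of control replicates 2 and 3 or of Stat3 siRNA replicates 2 and 3. AGO4, an Argonaute protein, rose from 6.51, 6.69 and 6.82 to 7.51, 7.60 and 7.82 (0.97 ± 0.106, adjusted p = 5.31e-04), while its dimmer probe sets measured 0.05 to 0.31, none called. Among the GW182 scaffolds of silencing complexes, TNRC6C rose by 0.67 and TNRC6A fell by 0.64 (adjusted p = 0.00242 and 0.00373), and no further probe set of either was called. The scramble control carries an siRNA as well. BCL7B, a BAF complex subunit, fell from 8.45, 8.29 and 8.33 to 7.24, 6.67 and 6.81 (-1.45 ± 0.131, adjusted p = 2.12e-04), and HMGN5, a nucleosome-binding protein, by 1.41 ± 0.162 (adjusted p = 7.16e-04). MTAP, which recycles methylthioadenosine, rose from 7.44, 7.47 and 7.52 to 8.95, 8.98 and 9.18 on its chosen probe set (1.56 ± 0.118, adjusted p = 8.76e-05), but its other 5 probe sets measured 0.08 to 0.43, none called. APIP, of the same salvage pathway, fell by 0.71 (adjusted p = 0.00168) on its chosen probe set, but the other probe set measured 0.05 and the mean of both was not called (adjusted p = 0.0690).

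Of the 50 genes with the 25 largest rises and 25 largest falls, 37 had further probe sets on the array. Of these 99 probe sets 79 had the same sign, 38 were called the same way and none was called the opposite way. The 50 genes were set beside Stat5a/b siRNA in the same line. Both comparisons use the same 3 control arrays, so the test of interest is the direct one between the siRNAs, which does not; it called 2379 genes (12.0%). Of the 25 falls 19 differed between the siRNAs. GLO1 measured -1.26 with Stat3 and 0.12 with Stat5a/b siRNA (difference -1.38, adjusted p = 1.64e-05), RCN2, a calcium-binding protein of the endoplasmic reticulum, -1.32 and -0.33 (adjusted p = 2.87e-05), and PHACTR2, a regulator of actin and protein phosphatase 1, -1.28 and 0.08 (adjusted p = 3.53e-05). BCL7B, C1orf115, KIFBP, RWDD4 and SLC11A2 each lay within 0.10 of control with Stat5a/b siRNA. F2RL2, on its chosen probe set, moved in opposite directions, at -1.38 and 1.08 (adjusted p of the difference = 1.36e-04). So did POLE3, which is not among the 25 falls, at -0.65 and 0.78 (adjusted p of the difference = 1.64e-05). In contrast FGFBP1, SELENOP and ENPP2, and outside the 25 falls CDH1 and HPSE, fell with both siRNAs. The differences of these genes between the siRNAs, -0.15 to 0.20, were not called.

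Of the 25 rises 12 differed between the siRNAs. TNFRSF9, BCL2A1 and ADAM12 measured 1.99, 1.77 and 1.39 with Stat3 siRNA and -0.16, 0.11 and -0.03 with Stat5a/b siRNA (adjusted p = 4.05e-05, 0.00395 and 2.21e-05). CDK6 measured 1.96 and 1.38, MTAP 1.56 and 1.16, LAMP2, a lysosomal membrane protein, 1.28 and 1.34, MTMR6, a phosphoinositide phosphatase, 1.30 and 1.21 and DYRK2, a protein kinase, 1.25 and 1.19. For these 5 the direct difference was not called (adjusted p = 0.0626, 0.0556, 0.724, 0.578 and 0.823), which does not show that the siRNAs act alike. CYLD, a deubiquitinase that restrains NF-kB, rose with both but more with Stat3 siRNA (1.33 and 0.67, adjusted p = 0.00101). LAMP2's probe sets split: 2 were called higher and 2 measured -0.06 and -0.01.

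**Figure D4:**
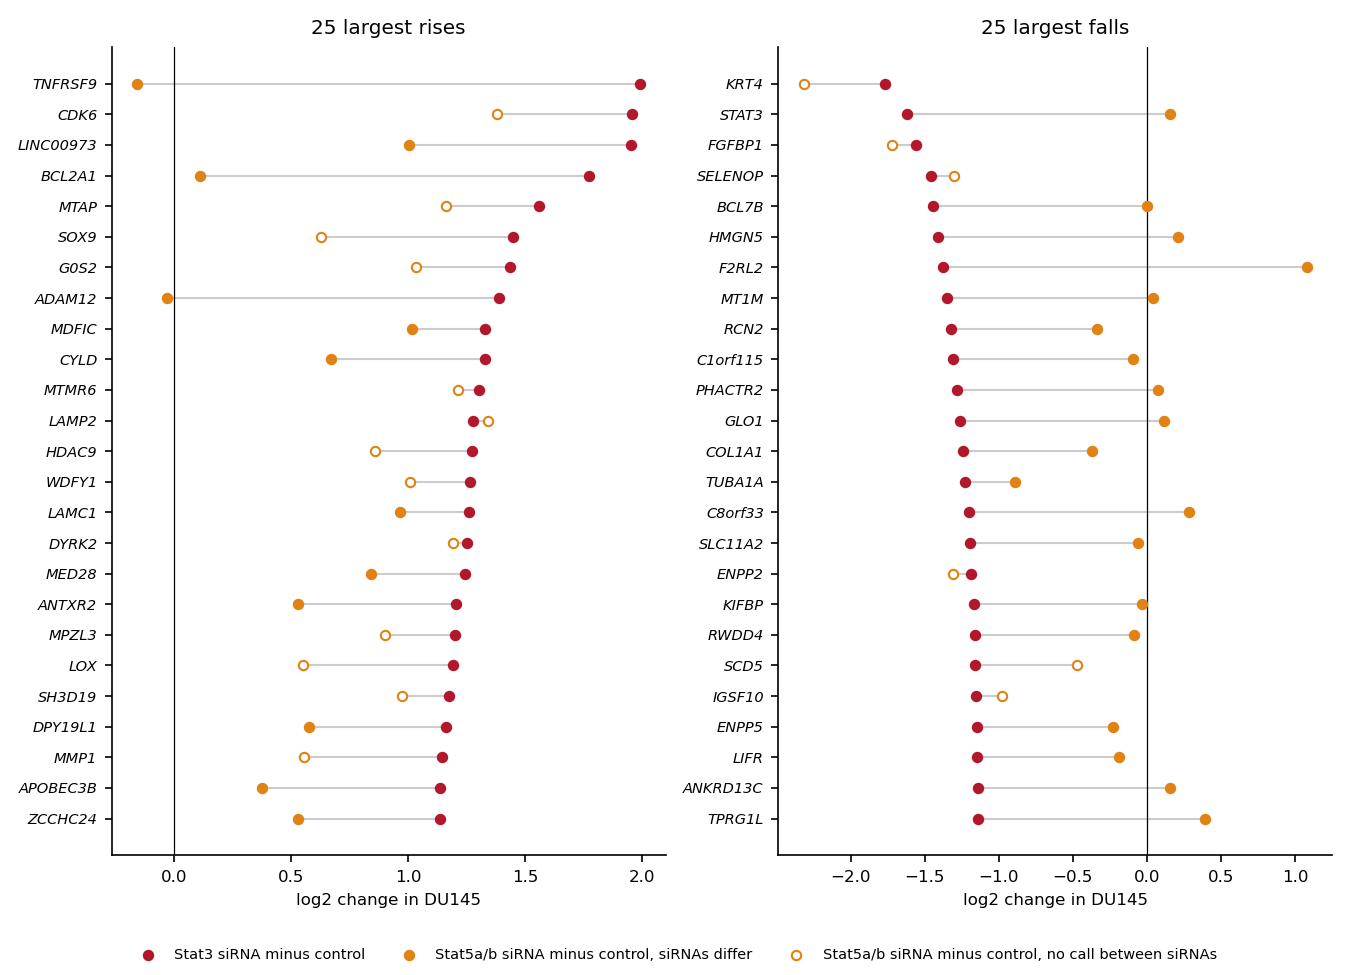
Log2 change against the shared control in DU145 (horizontal axis) for the 25 largest rises (left) and 25 largest falls (right), with Stat3 siRNA in red and Stat5a/b siRNA in orange; filled orange marks genes called in the direct test between the siRNAs. Of the falls 19 and of the rises 12 are filled, and many falls have their orange point near 0. The genes were chosen for the red values.

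The CWR22Rv1 arrays have controls of their own and played no part in choosing these genes. Of the 25 largest rises 17 were called higher there too and 1 (ADAM12) lower, where 6.05% of all genes were called higher. Of the 25 largest falls 17 were called lower there and none higher, where 4.36% of all genes were called lower. Over all calls, 334 rises were also called in CWR22Rv1 (45.3% of the 738 in DU145 and 27.9% of the 1197 there) and 302 falls (37.2% of 811 and 35.0% of 862), whereas 8 and 11 were called the opposite way. LAMC1 rose by 1.26 in DU145 and 1.08 in CWR22Rv1, and PHACTR2 fell by 1.28 and 1.16. BCL7B fell by 1.45 and 1.03, RCN2 by 1.32 and 0.94, HMGN5 by 1.41 and 0.91, GLO1 by 1.26 and 0.85 and LIFR by 1.15 and 0.56. CDC6 and HMMR rose by 0.46 and 0.40 in CWR22Rv1 (adjusted p = 0.00149 and 0.00230).

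The size of the effect differed between the lines for 593 genes (3.00%). The genes named here were chosen with their DU145 values known, and STAT3 itself fell less in CWR22Rv1. Their levels in CWR22Rv1 are not given here, so a missing response and a gene too dim there cannot be told apart. TNFRSF9, BCL2A1 and LINC00973, a long non-coding RNA, measured -0.13, 0.05 and -0.07 in CWR22Rv1 and differed from DU145 by 2.12, 1.72 and 2.02 (adjusted p = 1.13e-04, 0.0104 and 0.00101). ADAM12 fell by 0.29 there, a difference of 1.68 (adjusted p = 4.05e-06). CDH1 rose by 0.18 in CWR22Rv1 against a fall of 0.98 in DU145 (difference -1.16, adjusted p = 1.04e-04). FGFBP1 measured 0.52 there, not called, against -1.56 (difference -2.08, adjusted p = 3.46e-04), and BCL2L11 0.03 against -0.79 (difference -0.82, adjusted p = 3.47e-04). KRT4, a keratin of stratified epithelia and the largest fall in DU145 (7.75, 7.55 and 6.42 against 6.11, 5.33 and 4.97), measured 0.09. The other KRT4 probe set measured 0.07 in DU145. The DU145 call of KRT4 did not hold without either of control replicates 1 and 2 or of Stat3 siRNA replicates 2 and 3 (adjusted p up to 0.0738).

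**Figure D5:**
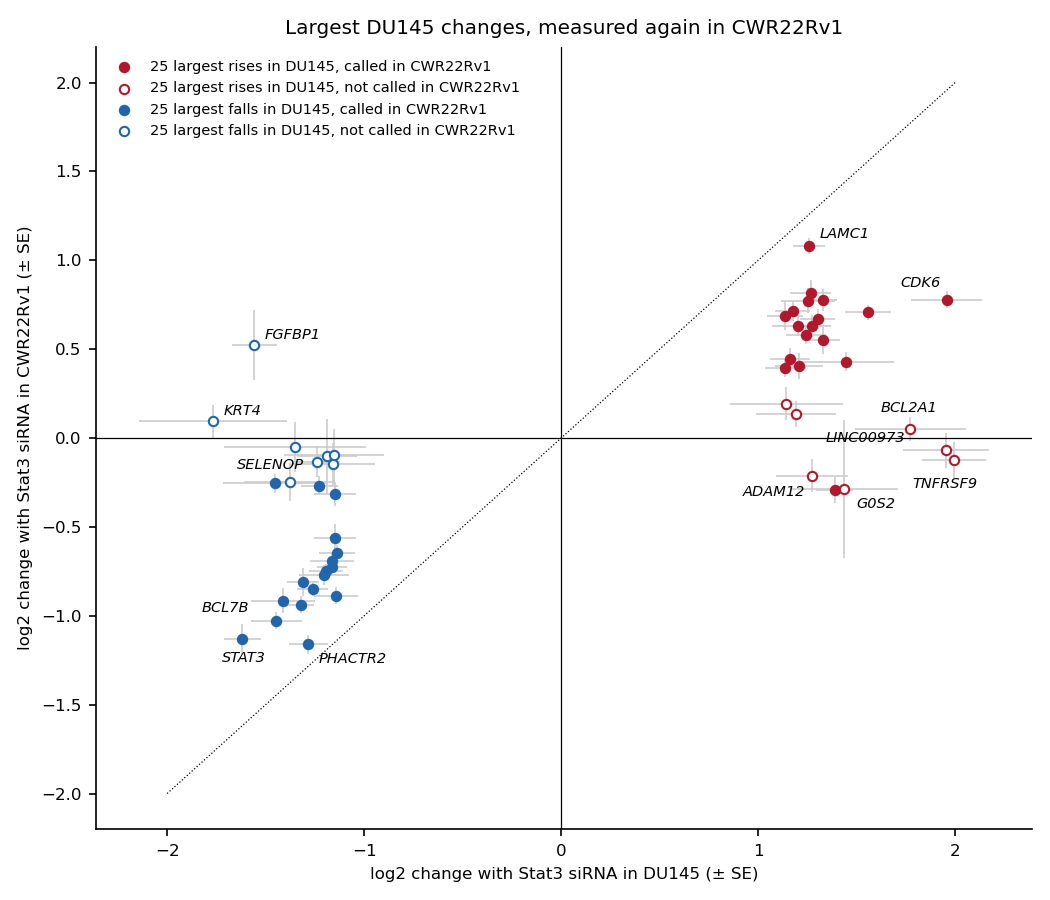
Log2 change with Stat3 siRNA in DU145 (horizontal axis) against CWR22Rv1 (vertical axis) for the 25 largest rises (red) and falls (blue) of DU145, with standard errors; filled points were called in CWR22Rv1 and the dotted line marks equal change. Most lie in the quadrants of equal direction and closer to 0 in CWR22Rv1. The genes were chosen for the DU145 values, which alone favours larger changes in DU145. FGFBP1, KRT4, TNFRSF9, BCL2A1 and ADAM12 do not follow.

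Among cell type markers the simple-epithelial keratins were bright, but most prostate epithelial markers were not read singly here. KRT18 stood at 12.83 to 13.05 in all 6 arrays and KRT8 at 10.48 to 11.11. VIM, a mesenchymal marker, was as bright as KRT18. KLK3, the prostate-specific antigen, and HOXB13, a prostate homeobox gene, stood at 6.40 to 6.86 and 4.17 to 4.71. Prostate epithelial markers had mean levels of 6.74 to 6.81 in control and 6.64 to 6.69 with Stat3 siRNA. The median control level of all genes was 6.35. Of 13 prostate epithelial markers 2 fell with Stat3 siRNA, CDH1 and EPCAM (15.4%, against 4.10% of all genes). Fibroblast markers had mean levels of 4.29 to 4.40 in control and 4.07 to 4.27 with Stat3 siRNA, and 1 of 10, COL1A1, fell. Leukocyte markers had mean levels of 4.20 to 4.35 and 4.08 to 4.14, and 1 of 8, CD14, fell. None of 9 endothelial and none of 8 neuroendocrine markers was called. On RMA's log2 scale no value is 0. Values near 4 lie below the array medians over all probe sets (5.156 to 5.198 in DU145). They lie above the lowest value of each of the 6 arrays (1.74 to 1.84).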

How the data were processed

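Affymetrix U133 Plus 2.0 arrays (18) measured RNA in 6 groups of 3. The deposited table holds log2 values per probe set; RMA and limma are named, without version or order, in the submitters' processing notes. Values were used without further normalisation, and array number limits the precision. Each of 19775 genes was read from 1 probe set, the brightest on average across the arrays among those annotated to that symbol alone. limma 3.58.1 in R 4.3.3 fitted the 9 DU145 arrays (difference between lines: all 18), with empirical Bayes moderation, Benjamini-Hochberg adjustment over all genes and a threshold of 0.05. On simulated DU145 arrays with independent errors, the fit called 29% of true changes of 0.5 and 92% of those of 1 (log2, either way). A gene that was not called may therefore still have changed by about 0.5.

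Same-numbered control and Stat3 siRNA arrays deviated together from their group means (correlations 0.197, 0.158 and 0.328). Each group was centred on its own mean, so the negative average of other-numbered pairs (-0.114) follows largely from these values and adds no support. Whether arrays pair by replicate number was not tested. The main fit used group means only, with the replicate number as a block as an alternative. The named genes were STAT3, the 25 largest rises and falls, up to 6 called members per list, every member of 7 short lists and the largest differences from Stat5a/b siRNA and between lines. The members and lists were chosen with earlier results of these data known. Genes without a single-symbol probe set were not analysed here. Alternatives changed the arrays fitted, block, normalisation, filter, probe set, error model, array weights and replicates. Promoters came from RefSeq (GRCh38.p14).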

Additional observations from a re-analysis of the deposited data

Results flagged for a closer look

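For the named genes below, the Stat3 siRNA effect differed between DU145 and CWR22Rv1 (limma, interaction over all 18 arrays, adjusted p under 0.05); values are the DU145 effect minus the CWR22Rv1 effect in log2. Positive differences were measured for TNFRSF9 (2.12), LINC00973 (2.02), BCL2A1 (1.72), ADAM12 (1.68), CDK6 (1.18), LOX (1.05), ADAM19 (1.00), MTAP (0.85) and CYLD (0.78). Smaller positive ones were measured for LAMP2 (0.65), MTMR6 (0.63), IL6R (0.63), CTNNB1 (0.62), TNFRSF10B (0.59), TNRC6C (0.57), IFNAR2 (0.55), CCNG1 (0.55) and AGO4 (0.50). The smallest positive ones were measured for SPRED2 (0.48), CCL20 (0.44), GINS2 (0.41) and GINS1 (0.35). Negative differences were measured for FGFBP1 (-2.08), KRT4 (-1.86), SELENOP (-1.20), CDH1 (-1.16), F2RL2 (-1.13), COL1A1 (-1.11), ENPP2 (-1.09), CD14 (-1.07) and BCL2L11 (-0.82). Smaller negative ones were measured for CEBPD (-0.77), CDH3 (-0.75), HPSE (-0.71), SLC7A11 (-0.62), LIFR (-0.59), SDC4 (-0.54), C1orf115 (-0.50), STAT3 (-0.49) and PTPN6 (-0.48). Still smaller ones were measured for RWDD4 (-0.47), USP18 (-0.46), SLC11A2 (-0.45), CDC25B (-0.44), KIFBP (-0.44), GLO1 (-0.41), TNRC6A (-0.41) and RCN2 (-0.38).

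Among probe sets without a single gene symbol, which entered no comparison above, 103 were called with Stat3 siRNA in DU145, 65 higher and 38 lower.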

How the results depend on the processing

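STAT3 was called lower under each of the 17 alternatives, at -1.89 to -1.40. The count of 1549 genes became 3117 (1486 higher, 1631 lower) with all 18 arrays in the fit and 791 to 1303 with 1 array left out. It was 1969 with the replicate number as a block, which also called 1503 of the 1549, and 1467 with the block in the 6 arrays alone, an alternative chosen after seeing the data. The count of genes that differed between the siRNAs, 2379, became 4379 with all 18 arrays and 1451 to 2116 with 1 array left out. The count that differed between the lines, 593, became 964 without dim genes, 904 with an intensity trend and robust prior, and 292 to 780 with 1 array left out. With the most variable probe set per gene, CDK6 measured -0.0082, and -0.2968 between the lines. On that probe set the differences from Stat5a/b siRNA also turned for BCL2L1 (0.2193), CEBPD (0.2933) and IFNGR1 (0.1819). Those values come from another probe set of the same gene. Of 95 calls of named genes, the mean of all probe sets ended 14, among them APIP, IL1R1, LTB, TNRC6A, TNRC6C and YES1, each called whichever array was left out. The most variable probe set ended 11 and turned CDK6; BCL2L11, CASP2, IFNGR1, MUC1 and TNFRSF10B are the ended ones that were called whichever array was left out. The block ended 2 (CDK2 and GBP1), and 9 in the 6 arrays alone. Leaving out 1 array ended 14 to 25. The 3 arrays a group limit what can be called among small changes.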
